A study of Rattus norvegicus with 6 samples.

Results

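The genes described here encode the enzymes and the chaperone that mature collagen: the catalytic subunits of collagen prolyl 4-hydroxylase (P4ha1, P4ha2, P4ha3), the lysyl hydroxylases (Plod1, Plod2, Plod3), the lysyl oxidases (Lox, Loxl1, Loxl2) and the collagen chaperone Serpinh1. They were chosen by name, and every probe set annotated with exactly 1 of these symbols was used, which gave 14 probe sets for all 10 genes, out of 31042 probe sets and 14217 named genes. Total RNA came from LN4D6, a cell line labelled as rat mammary tumor cells, either untransfected (3 arrays) or transfected with CREB3L1 (3 arrays). CREB3L1 is a transcription factor that sits as a membrane protein in the endoplasmic reticulum until proteases cut its active part free. Both groups were grown under the same stated conditions, and biotin-labelled RNA was hybridised to an Affymetrix 3' expression array. The control cells were not transfected, so CREB3L1 and the act of transfection cannot be told apart. The sources used here do not say whether the transfected cells were a pool or a clone, or from which species and vector the construct came. Nor do they say that the 3 arrays of a group came from separate cultures, so the spread behind each p-value is that of these samples and may be technical.

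Collagen chains are modified while they are still in the endoplasmic reticulum. Prolyl 4-hydroxylase, a tetramer of catalytic alpha subunits with the disulfide isomerase P4hb, hydroxylates proline and so lets the triple helix hold at body temperature, and the lysyl hydroxylases modify lysine residues that later carry sugars and crosslinks. Serpinh1, also called HSP47, binds the folded helix until it leaves the endoplasmic reticulum, and the secreted lysyl oxidases start the crosslinks between collagen or elastin molecules outside the cell.

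Since a transcription factor was transfected, the 250 bases before the transcription start are shown for Plod1 and Loxl1, the members whose values differed most between the groups, for Plod3, the paralogue of Plod1, and for P4ha2, whose window held the most motif matches. The sequences are those of RefSeq on rat assembly GRCr8, on the strand of the gene, and capitals mark every CCACG or ACGTG on either strand.
Plod1, chr5:163650738-163650987, minus strand: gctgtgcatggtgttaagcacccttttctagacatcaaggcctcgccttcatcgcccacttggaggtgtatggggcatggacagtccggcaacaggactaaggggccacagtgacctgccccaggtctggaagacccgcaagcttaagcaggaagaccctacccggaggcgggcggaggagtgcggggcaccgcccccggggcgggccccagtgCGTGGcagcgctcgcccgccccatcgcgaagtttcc
Plod3, chr12:25323632-25323881, minus strand: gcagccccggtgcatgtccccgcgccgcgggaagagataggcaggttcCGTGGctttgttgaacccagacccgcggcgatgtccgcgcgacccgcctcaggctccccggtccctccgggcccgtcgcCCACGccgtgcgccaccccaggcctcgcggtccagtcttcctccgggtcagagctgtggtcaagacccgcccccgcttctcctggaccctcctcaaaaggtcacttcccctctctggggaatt
P4ha2, chr10:38743644-38743893, plus strand: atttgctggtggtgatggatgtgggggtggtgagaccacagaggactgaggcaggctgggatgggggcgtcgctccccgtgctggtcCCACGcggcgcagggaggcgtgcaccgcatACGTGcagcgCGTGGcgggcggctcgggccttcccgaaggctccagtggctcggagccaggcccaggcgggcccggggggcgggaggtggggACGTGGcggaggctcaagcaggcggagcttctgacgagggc
Loxl1, chr8:67612225-67612474, minus strand: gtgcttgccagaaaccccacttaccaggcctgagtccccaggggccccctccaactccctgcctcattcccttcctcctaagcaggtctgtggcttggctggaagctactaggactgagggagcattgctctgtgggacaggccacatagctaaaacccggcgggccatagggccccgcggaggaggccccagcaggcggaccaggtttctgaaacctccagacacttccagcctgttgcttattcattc

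Windows of this length were searched on both strands for 8 members, all but Lox and Loxl2, and for all 33469 RefSeq windows. The windows of P4ha1, P4ha3 and Serpinh1 overlapped the annotated span of the gene itself, so they do not lie wholly before it. Such overlap was not counted over all windows. The full cyclic AMP response element TGACGTCA and the related TGACGTGG were in 0 of the 8 member windows, against 1.59% and 0.52% of all windows. The full endoplasmic reticulum stress element, a CCAAT box and a CCACG at a fixed spacing, was in 0 of the 8 and in 0.0657% of all windows. Its end piece CCACG, which is also part of TGACGTGG read from the other strand, was in 5 of the 8 (P4ha1, P4ha2, Plod1, Plod3 and Serpinh1) and in 27.2% of all windows. ACGTG, which lies within TGACGTGG too, was in P4ha2 and Plod2, 2 of the 8, and in 16.6% of all windows. Plod1 held 1 match to CCACG, 36 bases before the start, and Plod3 held 2, 123 and 202 bases before it. In P4ha2 a CCACG and an ACGTG match overlapped 40 and 41 bases before the start, and Loxl1 held no match to any of the 5 motifs. A match is only a stretch of letters in this window.

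The values are the deposited log2 expression values, taken as log2 from their range. Of the 6 arrays, CREB3L1 replicate 3 stood apart. The 3' probe set for Gapdh exceeded the 5' probe set by 4.77 there, against -0.16 to -0.10 on the other 5. For beta-actin this gap was 7.45 there, against 2.35 to 3.41 on the other 5. The 3' probe set of the hybridisation control bioB read 11.34 there, against 8.90 to 9.06 on the other 5. That array correlated with those 5 across probe sets at 0.984 to 0.989, against 0.996 to 0.999 among them. Over the 12072 probe sets above background, it departed from the mean of CREB3L1 replicates 1 and 2 by -0.89 at the 10th percentile and by 0.66 at the 90th, where untransfected replicate 3 departed from its own group by -0.23 and 0.25. Every difference that follows is CREB3L1 minus untransfected, from limma with Benjamini-Hochberg adjustment over all 31042 probe sets, and is given with and without this array where that matters. The Creb3l1 probe set was below background in both groups, at 3.36 ± 0.02 and 3.39 ± 0.03 (mean ± SD, n = 3), and is no check on the labels or on the transfection, because the construct may lack the stretch of rat transcript that the probes match. Among marker genes, 4 of 6 basal or myoepithelial ones were above background, among them the keratins Krt5 and Krt14 (14.67 ± 0.11 and 15.25 ± 0.13 in untransfected cells), as was Krt8 (13.24 ± 0.07), while the other 7 of 8 luminal or general epithelial markers, Epcam, Cdh1 and Krt18 among them, were below it. Endothelial (0 of 3), immune (0 of 4) and adipocyte (0 of 3) markers were all below background, and of 8 fibroblast markers only Col3a1 was above it. No marker in these lists passed the test, where 0.425% of all probe sets passed as higher and 0.963% as lower.

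A group mean of 5 or more on the log2 scale counted as above background, because the table has no detection calls. By this level 5 of the 10 members were above background in both groups (P4ha1, P4ha2, Plod1, Plod3 and Serpinh1), and 5 were below it in both (P4ha3, Plod2, Lox, Loxl1 and Loxl2). Thus 2 of 3 prolyl hydroxylase subunits, 2 of 3 lysyl hydroxylases, the chaperone and 0 of 3 lysyl oxidases were above background. A low value need not mean an absent transcript, since the 2 P4ha2 probe sets read 11.05 and 1.95 in the same untransfected cells. The 2 Serpinh1 probe sets read 13.9 and 3.72, but the brighter one can match more than 1 transcript. In these bulk samples, fewer cells that express a gene and less RNA per cell cannot be told apart.

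By their brightest probe sets, 1 of the 10 members passed the test as higher, Loxl1, and 0 passed as lower with limma, beside 0.425% and 0.963% of all probe sets. At an unadjusted p under 0.05, 2 members were lower (Plod1 and P4ha1) and 1 higher (Loxl1), where 5.49% and 4.17% of all probe sets were. Without CREB3L1 replicate 3, 1 member was higher (Loxl1) and 1 lower (Plod1), beside 1.54% and 2.44% of all probe sets. The groups did not overlap for 2 members in each direction, Loxl1 and Plod3 higher and Plod1 and P4ha1 lower, while 6.52% and 7.75% of all probe sets were separated that way. The median difference of the 10 members was -0.01, and that of all probe sets also -0.01. For the 5 members above background, 2 with a positive and 3 with a negative difference, the median was -0.37. Without CREB3L1 replicate 3 it was -0.08. Over all probe sets above background, the medians were -0.007 and 0.001.

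**Figure D1:**
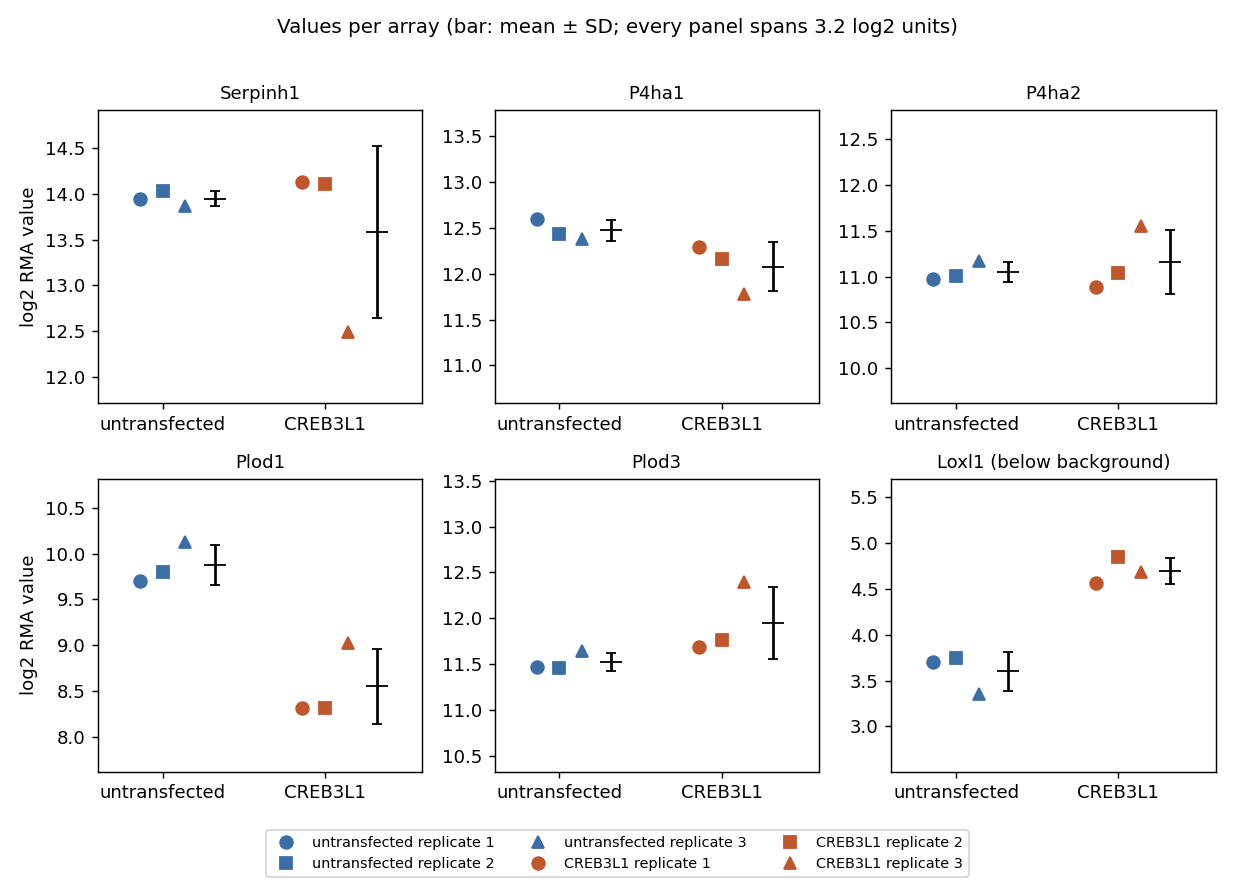
Log2 expression value on each of the 6 arrays (points, marker shape by replicate) with the group mean ± SD beside them, for the 5 members above background and for Loxl1. Plod1 ran from 9.71 to 10.12 in untransfected cells and from 8.31 to 9.02 in CREB3L1 cells, while the Serpinh1 spread in CREB3L1 cells came from replicate 3, at 12.50.

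Among the lysyl hydroxylases, Plod1 lay lower in CREB3L1 cells, Plod3 lay slightly higher, and Plod2 was below background. Plod1, whose loss in humans causes a form of Ehlers-Danlos syndrome, was read by 1 probe set (1367807_at) at 9.71, 9.80 and 10.12 in the untransfected arrays and 8.32, 8.31 and 9.02 in the CREB3L1 arrays. All 3 CREB3L1 values were below the lowest untransfected value, and the highest of them was replicate 3. The difference was -1.32 ± 0.23 (SE; 95% confidence interval -1.91 to -0.74), a 2.50-fold lower level that did not pass the test with all arrays (adjusted p = 0.0893). Without CREB3L1 replicate 3 it was -1.56 ± 0.13, 2.95-fold lower, and passed (adjusted p = 0.00722). It also passed when probe sets below background in both groups were left out (adjusted p = 0.0456). With array weights estimated from the scatter of these same values it passed too (adjusted p = 0.00495). Those weights gave CREB3L1 replicate 3 only 0.17, against 0.78 to 2.77 for the other arrays, so that run is close to leaving it out. It did not pass after quantile normalisation (0.135), median centring (0.114), robust moderation (0.0996) or a mean-variance trend (0.0715), nor with any other array left out (adjusted p = 0.234 to 0.279). Its direction was the same in every alternative run.

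Plod3, which can both hydroxylate lysine and add the sugars that follow, was read by 1 probe set (1372877_at) at 11.47, 11.45 and 11.64 in untransfected cells. In CREB3L1 cells it read 11.68, 11.77 and 12.39, all above the untransfected values, by a small margin in replicates 1 and 2. The difference of 0.43 ± 0.20 (95% interval -0.08 to 0.93) did not pass the test (adjusted p = 0.662), and without CREB3L1 replicate 3 it came to 0.20 ± 0.07 (adjusted p = 0.269). Plod2, the isoform tied to the crosslinks of stiff, fibrotic matrix, ranged from 2.42 to 2.54 over all 6 arrays.

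CREB3L1 replicate 3 exceeded the mean of the other CREB3L1 arrays for both genes, by 0.71 for Plod1 and 0.67 for Plod3. Read within each array, Plod1 minus Plod3 was therefore alike on all 3 CREB3L1 arrays, at -3.37, -3.46 and -3.37, against -1.77, -1.66 and -1.51 in untransfected cells. The pair's difference moved by -1.75 ± 0.08 between the groups, and by -1.77 without CREB3L1 replicate 3. The groups did not overlap, and the exact two-sided permutation p of 0.1 is the smallest that 3 against 3 allows, 0.2 after adjustment over the 2 pairs compared. Such a within-array value sets the 2 genes against each other and does not say by how much each changed.

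**Figure D2:**
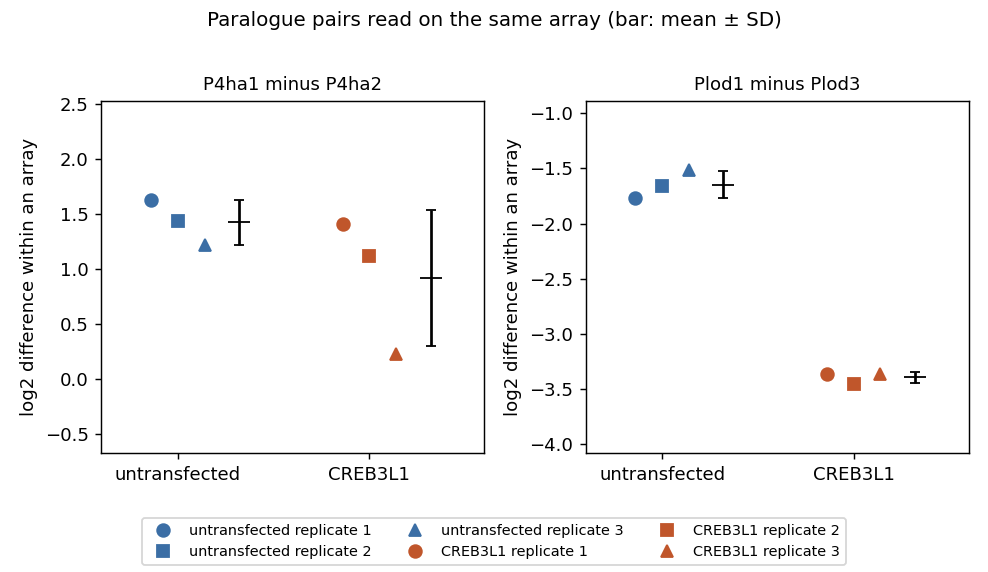
Log2 difference between 2 paralogues read on the same array, for each of the 6 arrays (points) with group mean ± SD. Plod1 minus Plod3 fell in narrow bands around -1.65 in untransfected and -3.40 in CREB3L1 cells, while P4ha1 minus P4ha2 had a CREB3L1 SD of 0.61, with replicate 3 lowest at 0.23.

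Of the prolyl 4-hydroxylase subunits, P4ha1 lay a little lower in CREB3L1 cells and P4ha2 showed no set direction. P4ha1, the main subunit of most cell types, was read by 1 probe set (1370954_at) at 12.60, 12.44 and 12.38 in untransfected cells and 12.29, 12.16 and 11.78 in CREB3L1 cells. The groups did not overlap, but the nearest values were 12.38 and 12.29. The difference was -0.40 ± 0.15 (95% interval -0.76 to -0.03), 1.31-fold, and did not pass the test (adjusted p = 0.466). Without CREB3L1 replicate 3, the lowest array, it was -0.25 ± 0.08 (adjusted p = 0.239).

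P4ha2, the second catalytic subunit, was read on its brighter probe set (1372610_at) at 10.97, 11.01 and 11.17 in untransfected cells and 10.89, 11.04 and 11.55 in CREB3L1 cells. The groups overlapped, with both the lowest and the highest value in CREB3L1 cells. The difference was 0.11 ± 0.18 (95% interval -0.35 to 0.57, adjusted p = 0.9998), and it turned to -0.08 ± 0.08 without CREB3L1 replicate 3 (adjusted p = 0.931). The second P4ha2 probe set was below background, at 1.95 ± 0.05 and 1.91 ± 0.04 in the groups, and so was P4ha3, the third subunit, at 2.02 ± 0.02 and 2.06 ± 0.04. Within arrays, P4ha1 minus P4ha2 moved by -0.51 ± 0.37 (exact two-sided permutation p = 0.2, and 0.2 after adjustment), and by -0.16 without CREB3L1 replicate 3.

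The direction of the Serpinh1 difference depended on that array. The brighter of its 2 probe sets (1371310_s_at), whose name marks probes that can match more than 1 transcript, read 13.94, 14.03 and 13.87 in untransfected cells and 14.13, 14.11 and 12.50 in CREB3L1 cells. CREB3L1 replicates 1 and 2 were above every untransfected value, and replicate 3 was the lowest of all arrays, 1.63 log2 units under the mean of the other CREB3L1 arrays. The difference was -0.37 ± 0.47 (95% interval -1.55 to 0.82, adjusted p = 0.9998). Without replicate 3 the direction turned to 0.18 ± 0.06 (95% interval 0.03 to 0.32), which did not pass the test either (adjusted p = 0.234). The same array carried the wide 3' to 5' gap of Gapdh and the high bioB control. The part of RNA quality or hybridisation in the Serpinh1 value was not tested. The second Serpinh1 probe set, from 3.54 to 3.87, was below background throughout and differed by 0.07 ± 0.10.

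Among the lysyl oxidases, Loxl1, known for its part in elastic fibre assembly, had the only call among the members, at levels below background. Its probe set (1388902_at) read 3.70, 3.74 and 3.36 in untransfected cells and 4.57, 4.85 and 4.68 in CREB3L1 cells. The groups were far apart relative to their spread, and CREB3L1 replicate 3 lay between the other CREB3L1 arrays. The difference was 1.10 ± 0.13 (adjusted p = 0.0279) with 6 arrays and 1.11 ± 0.15 without CREB3L1 replicate 3 (adjusted p = 0.0259). No fold is given, as both group means were under the background level. The call was lost when any other array was left out, with adjusted p from 0.0523 without untransfected replicate 3 to 0.110 without CREB3L1 replicate 2, while the difference stayed between 0.98 and 1.17.

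Lox, the founding member of the family, was read by 2 probe sets, between 2.33 and 2.63 on all arrays, with differences of 0.0026 ± 0.03 and -0.03 ± 0.05. Loxl2, which acts on basement membrane collagen, lay between 2.11 and 2.53 on its 2 probe sets, with differences of -0.03 ± 0.03 on each. All of these values, like those of Loxl1, are under the background level.

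**Figure D3:**
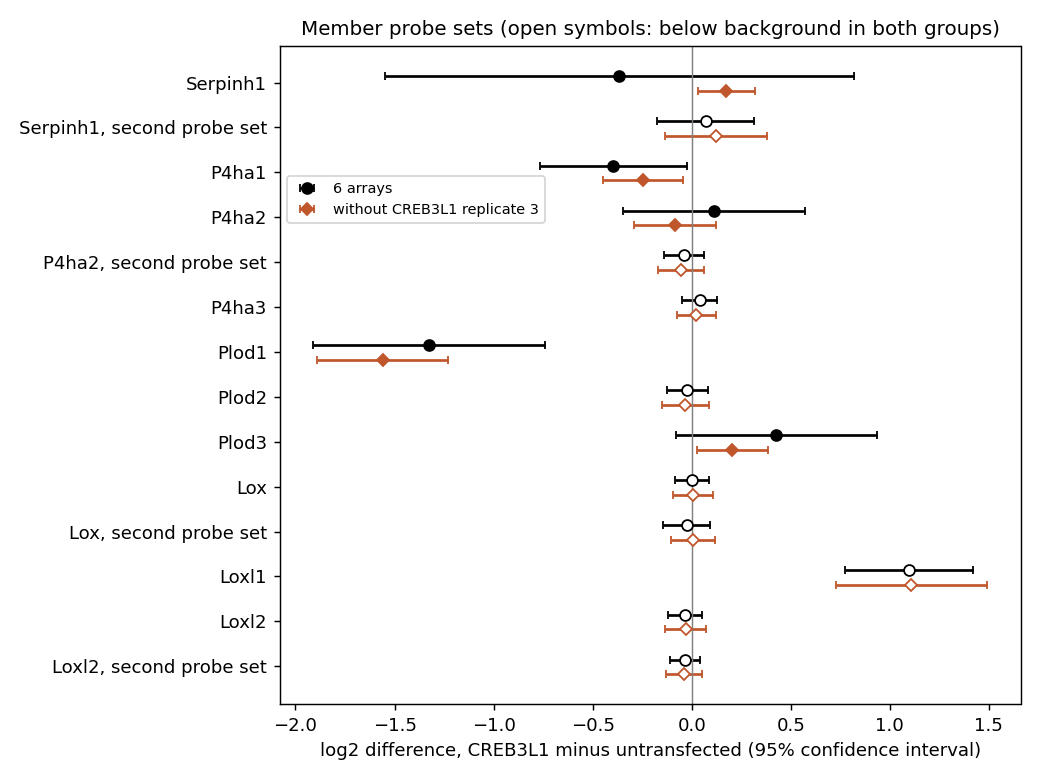
Log2 difference, CREB3L1 minus untransfected, with its 95% confidence interval for each of the 14 member probe sets, from all 6 arrays (black circles) and without CREB3L1 replicate 3 (orange diamonds), open where both groups were below background. Plod1 at -1.32 and Loxl1 at 1.10 stand apart from 0 in both. The P4ha1 interval also leaves out 0 in both, by little (-0.76 to -0.03, and -0.45 to -0.04 without that array). The Serpinh1 interval from -1.55 to 0.82 narrows to 0.03 to 0.32 without that array. That of Plod3, from -0.08 to 0.93, narrows to 0.02 to 0.38. These intervals are not adjusted for the number of probe sets.

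The genes that work beside the members on procollagen showed no call. Of 26 listed genes for collagen folding, glycosylation, export and propeptide removal, 19 were measured and 12 were above background in a group. None passed the test with 6 arrays in limma, beside 0.425% higher and 0.963% lower of all probe sets. At an unadjusted p under 0.05 there was 1 higher and 0 lower (4.17% and 5.49% of all probe sets). The higher one was Hsp90b1, the endoplasmic reticulum form of HSP90, with 14.06, 14.01 and 14.15 in untransfected and 14.19, 14.23 and 14.22 in CREB3L1 cells (0.14 ± 0.05, adjusted p = 0.392). The next smallest p among genes above background was that of Mia2, which helps large cargo such as procollagen leave the endoplasmic reticulum. It read 9.93, 9.93 and 10.07 in untransfected and 9.62, 9.63 and 10.12 in CREB3L1 cells (-0.19 ± 0.15, adjusted p = 0.9998), and was the 1 gene of the list that passed without CREB3L1 replicate 3 (-0.35 ± 0.05, adjusted p = 0.0366, where 2.44% of all probe sets were called lower). P4hb, named for its role as the shared partner of the prolyl hydroxylase subunits, differed by -0.10 ± 0.10 with all arrays and by 0.0039 ± 0.06 without CREB3L1 replicate 3. The median difference of the 19 genes was -0.03. Of the 12 above background, 9 had a negative difference with all arrays and 5 without CREB3L1 replicate 3.

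On the substrate side, 23 collagen and elastin genes were listed, 22 were measured and 9 were above background in a group. Of these 22, 0 rose and 2 fell in limma, beside 0.425% and 0.963% of all probe sets. At an unadjusted p under 0.05, 1 was higher and 5 were lower, beside 4.17% and 5.49% of all probe sets. The number that fell was 1 when 1 untransfected array was left out, whichever it was, and when CREB3L1 replicate 1 or 2 was. Both falls are of collagens outside the classical fibrils. Col18a1, of the basement membrane, went from 5.92, 6.19 and 6.40 to 2.82, 2.79 and 2.92, under the background level (adjusted p = 0.00101). Col6a3, a chain of microfibrillar collagen VI, went from 5.91, 5.83 and 6.92 to 3.68, 2.74 and 2.52, also under that level (adjusted p = 0.0400). Without CREB3L1 replicate 3, 4 of the 22 fell, beside 2.44% of all probe sets, and the added genes were the other collagen VI chains Col6a1 (-2.48 ± 0.14, adjusted p = 0.00279) and Col6a2 (-0.61 ± 0.10, adjusted p = 0.0425), named after their values were seen. With all arrays these gave -2.01 ± 0.43 and -0.29 ± 0.28 (adjusted p = 0.149 and 0.9998). The 3 fibrillar chain genes above background, also named after their values were seen, had no shared direction. Col3a1 differed by 0.19 ± 0.08 from 14.53 ± 0.07 (adjusted p = 0.591) and Col5a1 by 0.20 ± 0.16 (adjusted p = 0.9998). Col5a2 read 13.42, 13.41 and 13.52 in untransfected and 13.25, 13.22 and 13.21 in CREB3L1 cells, with no overlap (-0.225 ± 0.04, adjusted p = 0.0990, and 0.0932 without CREB3L1 replicate 3). Eln, the elastin gene, was below background, as were Col1a1 and Col1a2.

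**Figure D4:**
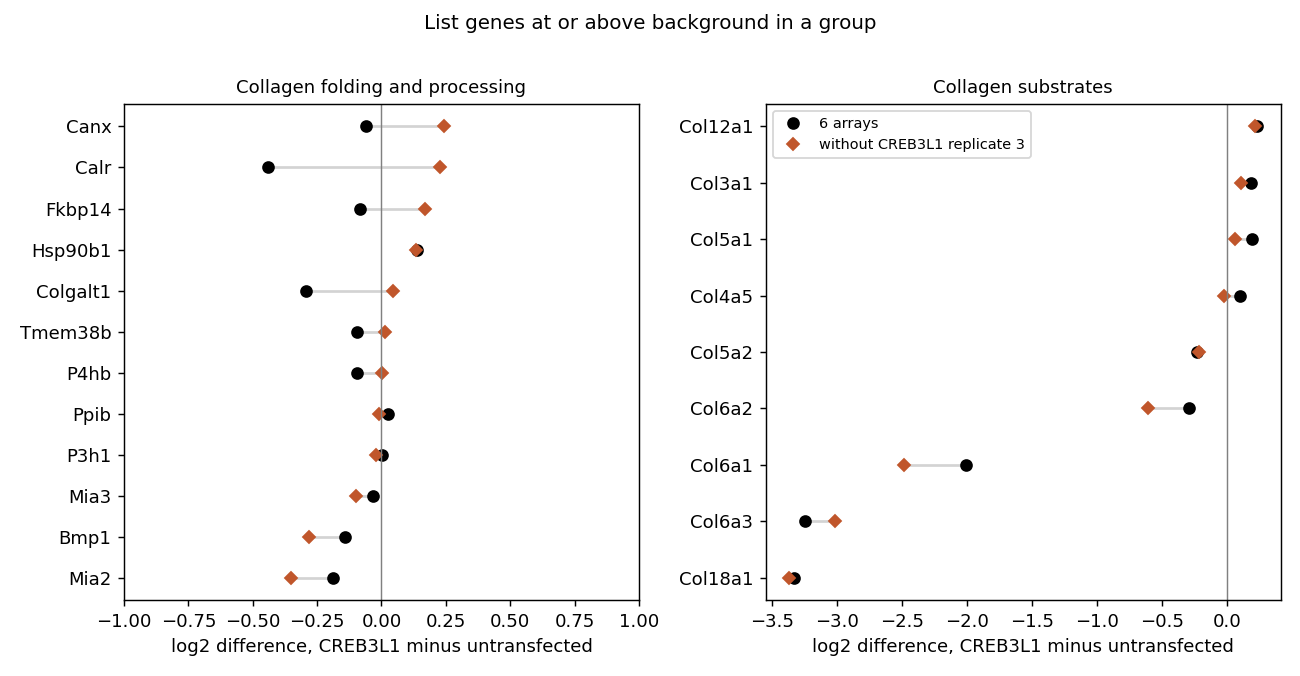
Log2 difference, CREB3L1 minus untransfected, for the 12 collagen folding and processing genes (left) and the 9 collagen substrate genes (right) above background in a group, from 6 arrays (circles) and without CREB3L1 replicate 3 (diamonds). Folding genes lay within -0.44 to 0.24 in both, while Col18a1, Col6a3 and Col6a1 lay at -2.01 or lower, with values under background taken as they are.

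The prolyl hydroxylases that act on the hypoxia-inducible factors use the same cofactors as the collagen enzymes. Of 5 listed genes with this role or a related one, 4 were measured and 3 were above background. In limma 0 passed the test, beside 0.425% higher and 0.963% lower of all probe sets. At an unadjusted p under 0.05 there were also 0, beside 4.17% and 5.49%. At such shares, 0 of 4 genes does not show that they were unchanged. The 2 with the smallest p were Egln3, at 13.02 ± 0.14 in untransfected and 12.83 ± 0.17 in CREB3L1 cells (-0.19 ± 0.11, adjusted p = 0.866), and Egln1, at 11.40 ± 0.11 and 11.51 ± 0.37 (0.11 ± 0.19, adjusted p = 0.9998). Without CREB3L1 replicate 3 the Egln1 difference turned to -0.10 ± 0.07 (adjusted p = 0.758). All 4 measured genes, the one below background included, then had a small negative difference (-0.10 to -0.06), against 2 with all arrays. Of all 31042 probe sets, 14744 had a negative difference without that array and 17324 with all arrays.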

How the data were processed

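Total RNA of 3 untransfected and 3 CREB3L1 samples was measured on 1-colour Affymetrix arrays. The authors deposited log2 expression values, and the submitters' processing notes name RMA and Partek 6.6 for them. They were used as deposited. No source used here gives the log base, and the range of 0.267 to 17.2 was read as log2. RMA summarises several probes per probe set and compresses low values. The table holds 31099 probe sets, of which 57 controls were set aside. Symbols came from GEO's platform annotation, checked by gene ID against RefSeq GRCr8, with 0 changes. 20826 probe sets had 1 symbol, 436 several and 9780 none. A gene was counted by its brightest probe set, by the mean of all arrays.

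Groups came from the transfection label, and replicates are numbered in deposit order. limma 3.58.1 in R 4.3.3 (lmFit, eBayes, two-sided) gave the differences, with Benjamini-Hochberg adjustment and a threshold of 0.05. The number of arrays limits the precision. The fit was tested on simulated data with the pooled variance of each probe set. It recovered 24% of changes of 0.5 log2 units, 50% of 1, 80% of 2 and 96% of 4. False calls numbered 5 over 31042 probe sets. A gene that did not pass may therefore still have changed. The members, gene lists, motifs and background level of 5 were chosen with earlier results of these data known. By rule, the named genes are all members, Creb3l1, the Gapdh and beta-actin controls and some list genes. Of a list, these are up to 4 past the threshold with the smallest p, or otherwise the 2 with the smallest p above background. P4hb, the other collagen and elastin genes, the bioB control and the cell type markers in the text fall outside this rule. They were named for their role or after their values were seen. Alternatives were renormalisation, other moderation, a filter on dim probe sets, array weights, each array left out, probe set means and other background levels.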

Additional observations from a re-analysis of the deposited data

How the results depend on the processing

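With 3 arrays a group, 1 of them standing apart, most counts moved. Over all probe sets, leaving out each array gave 28 to 479 higher and 116 to 756 lower, array weights gave 600 and 952, and a mean-variance trend gave 79 higher. Counts over 10 to 22 genes moved too. Members called higher ranged from 0 to 1 with an array left out and were 0 with dim probe sets left out, which removes Loxl1. Members called lower ranged from 0 to 1, and were 1 (Plod1) both with array weights and without dim probe sets. Folding and processing genes called lower ranged from 0 to 1. Substrate genes called lower ranged from 1 to 4, and were 1 with quantile normalisation and 4 with array weights.

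Directions turned for Serpinh1 (0.093 with array weights, -0.64 to 0.18 with an array left out) and P4ha2 (-0.034 with array weights, -0.083 to 0.25). They also turned for probe sets below background. These were the brighter Lox probe set (-0.016 with array weights, -0.011 for the mean of both, -0.018 to 0.018 with an array left out), the dimmer one (-0.060 to 0.0081), Plod2 (-0.040 to 0.0064) and the second Serpinh1 probe set (-0.021 to 0.14). The causes were not tested. At a background level of 4 or 6, 6 (Loxl1 added) or 5 members were above it. Plod1 minus Plod3 stayed between -1.81 and -1.69 with an array left out. No paired analysis was possible because no replicate number in the labels is shared by the groups.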
